A study of Mus musculus with 2 samples.

Results

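The transcription factors that specify or maintain the trophectoderm were followed across 2 two-colour arrays of mouse embryonic stem cell clones. The set is 10 genes, namely Tead4, Cdx2, Gata3, Gata2, Tfap2c, Tfap2a, Eomes, Elf5, Ets2 and Hand1, and every non-control probe that the scanner files assign to one of these names was taken. That gave 12 probes out of 39429, and 10 genes out of 31829 gene names on the array. Identical names matched 8 of the genes, and Tfap2a and Tfap2c were found under their older names Tcfap2a and Tcfap2c. Eomes and Tfap2a had 2 probes each, of which the brighter stands for the gene, and the others had 1.

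The trophectoderm is the outer epithelium of the blastocyst and the source of the placental trophoblast. In outer cells Tead4, with its coactivator Yap1, turns on Cdx2 and Gata3. Cdx2 and Oct4 (Pou5f1) repress each other, so that embryonic stem cells that lose Oct4 switch on Cdx2 and turn into trophoblast-like cells. Gata3, Gata2, the AP-2 factors Tfap2c and Tfap2a, Eomes, Elf5 and Ets2 act in the trophoblast stem cell network, and Hand1 drives trophoblast giant cell formation.

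The cells were ZHBTc4, a mouse line in which, as background, both endogenous Oct4 alleles are disrupted and Oct4 comes from a transgene that doxycycline shuts off. The monoclonal lines carried, per the labels, Nr5a2-EGFP (clone 26), Oct4-EGFP (clone 9) or EGFP alone (clone 2-5) in the pCAG-IP vector, and all 3 were given doxycycline before RNA was harvested. They grew without feeder cells in 15% serum with 1000 IU/ml LIF, the cytokine that keeps embryonic stem cells undifferentiated. The arrays set Nr5a2-EGFP (Cy5) against EGFP (Cy3), and Nr5a2-EGFP (Cy5) against Oct4-EGFP (Cy3). The dose and length of the doxycycline treatment are not given in the sources used here. Each transgene is represented by 1 clone, each pair of clones by 1 array, and the dyes were not swapped, so a property of the clone or of the dye cannot be told apart from the transgene. With 1 array a pair there is no test and no p-value, and a difference is counted where it reaches 2-fold, a log2 ratio of 1 or more in size. Oct4-EGFP over EGFP was derived from both arrays by subtraction, so all 3 comparisons share libraries and are given side by side.

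Of the array's spots, 78.1% to 80.1% per channel were well above background. The Nr5a2-EGFP clone was read on both arrays. Across 25460 genes these 2 readings differed with an SD of 0.30 on the log2 scale, and 436 genes (1.71%) differed by 2-fold or more. That SD is the only available measure of spread between arrays. It is of Cy5 levels and not of ratios. It covers technical error, and whether it also covers separate extractions of RNA is not given in the labels. No member was 2-fold apart between these readings, the largest difference being -0.43 (log2, EGFP array minus Oct4 array) for Tead4. No member was saturated in any channel. The transgenes' own genes did not mark the clones by their labels. The brighter Nr5a2 probe read 1513.6 and 1655.1 in the clone labelled Nr5a2-EGFP, 2912.5 in Oct4-EGFP cells and 1723.6 in EGFP cells, so that its log2 ratio was -0.92 for Nr5a2-EGFP over EGFP and -1.14 for Nr5a2-EGFP over Oct4-EGFP. The dimmer Nr5a2 probe gave -0.39 and -0.63 for the same 2 comparisons. Pou5f1 read 142.9 and 71.3 in Nr5a2-EGFP cells, the second of these not well above background, 142.3 in Oct4-EGFP cells and 91.4 in EGFP cells. Its normalized Cy3 level differed by -0.02 (log2, Oct4-EGFP minus EGFP), and the derived ratio of 0.78 rests on the channel near background. Whether these probes lie in sequence that the transgenes carry was not tested, so Nr5a2-EGFP, Oct4-EGFP and EGFP stand throughout for the libraries labelled so, and every direction rests on those labels.

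Against Oct4-EGFP, 5 of the 9 measured members were at least 2-fold higher in Nr5a2-EGFP cells (Cdx2, Gata3, Gata2, Hand1 and Tfap2c) and none was 2-fold lower. Across all 26041 genes measured on that array, 4.55% were 2-fold higher and 7.11% were 2-fold lower, 11.7% together. The median log2 ratio was 1.35 for the 9 members and 0.01 for all genes. Against EGFP, 1 member (Gata3) was 2-fold higher in Nr5a2-EGFP cells and 1 (Hand1) was 2-fold lower, where 3.35% of 25952 genes were higher and 5.07% lower, 8.42% together. The members' median there was 0.07, and that of all genes 0.03. For Oct4-EGFP over EGFP, none was 2-fold higher and 5 were 2-fold lower, with a median of -1.11. The same 5 genes make up both counts of 5. Of 26647 genes, 6.4% were higher and 5.78% lower in that derived comparison, 12.2% together, with a median of 0.02. In bulk RNA, fewer cells expressing a gene and less RNA per cell cannot be told apart.

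**Figure D1:**
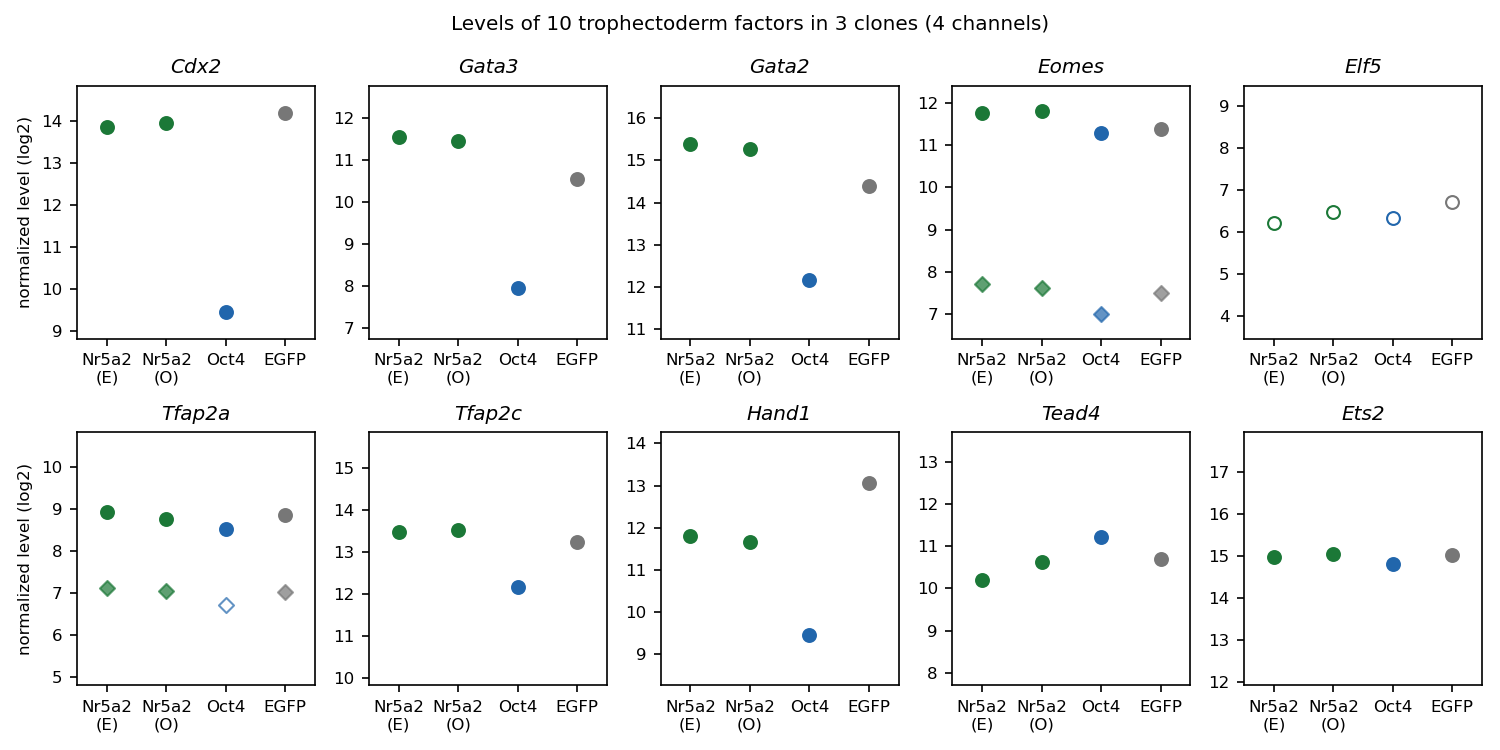
Normalized log2 signal of each member (vertical axis) in the Nr5a2-EGFP clone as read on the EGFP array (E) and on the Oct4 array (O), the Oct4-EGFP clone and the EGFP clone (horizontal axis). Circles are the brightest probe, diamonds the other probe of Eomes and Tfap2a, and open symbols are not well above background, and Cdx2 reads 9.47 in the Oct4-EGFP clone while its other 3 readings lie between 13.85 and 14.19.

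Tead4, the DNA-binding partner of Yap1 at the top of the pathway, was well above background in every clone. Its probe (NM_011567, chromosome 6, 128177161 to 128177220, mm9) gave background-subtracted signals of 1314.5 and 1892.5 in Nr5a2-EGFP cells on the EGFP and Oct4 arrays, 2271.0 in Oct4-EGFP cells and 1119.1 in EGFP cells. Before normalization, the brightest reading was that of Oct4-EGFP, and the Nr5a2-EGFP readings were the furthest apart among the measured members. The log2 ratios were -0.52 for Nr5a2-EGFP over EGFP, -0.60 for Nr5a2-EGFP over Oct4-EGFP and 0.08 for Oct4-EGFP over EGFP. None reached 2-fold.

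Cdx2, the homeobox factor that opens the trophectoderm programme, showed the widest separation of any member. Its probe (NM_007673, chromosome 5, 148112547 to 148112606, mm9) read 18737.9 and 19178.6 in Nr5a2-EGFP cells, 612.4 in Oct4-EGFP cells and 13687.2 in EGFP cells. The signal was thus high in the Nr5a2-EGFP and EGFP clones and low in the Oct4-EGFP clone, where it was still well above background. The log2 ratio was 4.48 for Nr5a2-EGFP over Oct4-EGFP, or 22.4-fold. This was number 2 from the top among the 26041 genes. For Oct4-EGFP over EGFP it was -4.83, number 4 from the bottom of 26647. Against EGFP, Nr5a2-EGFP cells gave -0.34, near the SD between repeat readings.

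Gata3 is a zinc-finger factor that acts in parallel with Cdx2 downstream of Tead4. Its probe (NM_008091, chromosome 2, 9779551 to 9779610, mm9) read 3497.3 and 3413.4 in Nr5a2-EGFP cells, 198.3 in Oct4-EGFP cells and 1013.7 in EGFP cells. The order was therefore Nr5a2-EGFP highest, EGFP between and Oct4-EGFP lowest. Log2 ratios were 1.00 for Nr5a2-EGFP over EGFP, 3.48 for Nr5a2-EGFP over Oct4-EGFP and -2.48 for Oct4-EGFP over EGFP. The ratio against EGFP sat on the 2-fold line, as the last of the 869 genes counted as higher there, and the members' count of 1 became 0 with the other array's Nr5a2-EGFP reading or with outlier spots kept, and 2 with median centring. The ratio against Oct4-EGFP was number 13 from the top.

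Gata2, a close relative that regulates placental hormone genes in trophoblast giant cells, had the same order of levels. Its probe (NM_008090, chromosome 6, 88156362 to 88156421, mm9) read 53169.4 and 48859.9 in Nr5a2-EGFP cells, 3915.1 in Oct4-EGFP cells and 15915.3 in EGFP cells. Log2 ratios were 0.99 for Nr5a2-EGFP over EGFP, 3.12 for Nr5a2-EGFP over Oct4-EGFP and -2.13 for Oct4-EGFP over EGFP. Gata2 thus fell just outside the 2-fold line against EGFP, at 1.99-fold, while Gata3 fell just inside it at 2.00-fold. The gap between them is far smaller than the spread between repeat readings.

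The proximal promoters of these 3 genes are shown because Cdx2, Gata3 and Gata2 had the 3 largest ratios against Oct4-EGFP among the members. The sequences are from RefSeq (GRCm38.p6), from 250 bases before to 50 bases after the annotated start, 5′ to 3′ on the gene's own strand, and matches to the motifs searched, other than the E-box, are in capitals. The windows are chr5:147307200-147307499 (minus strand) for Cdx2, chr2:9878551-9878850 (minus strand) for Gata3, and chr6:88193641-88193940 and chr6:88198414-88198713 (plus strand) for the 2 starts of Gata2.
Cdx2: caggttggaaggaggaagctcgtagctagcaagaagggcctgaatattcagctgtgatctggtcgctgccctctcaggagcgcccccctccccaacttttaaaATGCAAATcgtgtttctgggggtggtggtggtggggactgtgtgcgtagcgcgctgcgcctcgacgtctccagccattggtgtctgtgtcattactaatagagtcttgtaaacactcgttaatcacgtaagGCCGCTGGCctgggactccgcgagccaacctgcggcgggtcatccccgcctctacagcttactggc
Gata3: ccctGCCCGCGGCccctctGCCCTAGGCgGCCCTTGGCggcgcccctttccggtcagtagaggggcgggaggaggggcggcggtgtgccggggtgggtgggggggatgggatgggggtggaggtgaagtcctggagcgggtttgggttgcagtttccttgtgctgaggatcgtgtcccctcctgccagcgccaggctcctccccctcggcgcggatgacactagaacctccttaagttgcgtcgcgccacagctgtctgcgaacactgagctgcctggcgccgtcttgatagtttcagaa
Gata2, first start: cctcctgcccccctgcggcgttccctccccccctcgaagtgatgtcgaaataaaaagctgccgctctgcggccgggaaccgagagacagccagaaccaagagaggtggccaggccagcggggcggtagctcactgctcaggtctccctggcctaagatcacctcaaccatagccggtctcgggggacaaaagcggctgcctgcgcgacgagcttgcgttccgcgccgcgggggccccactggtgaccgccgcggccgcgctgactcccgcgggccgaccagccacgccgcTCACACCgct
Gata2, second start: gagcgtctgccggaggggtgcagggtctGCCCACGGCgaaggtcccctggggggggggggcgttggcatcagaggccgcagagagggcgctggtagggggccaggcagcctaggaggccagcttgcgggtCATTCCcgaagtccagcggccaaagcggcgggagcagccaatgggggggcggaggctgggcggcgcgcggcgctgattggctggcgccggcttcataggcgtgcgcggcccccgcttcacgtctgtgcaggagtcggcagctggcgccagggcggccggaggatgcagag

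On both strands the search covered the TEAD motif CATTCC, the GATA motif AGATAA, the CDX motif CAATAAA, the AP-2 motif GCCNNNGGC, the T-box motif TCACACC, the E-box CANNTG, the octamer ATGCAAAT that Oct4 and its relatives bind, and the NR5A motif AAGGTCA. The Cdx2 window held 1 octamer, its first base 147 bases before the start, and 1 AP-2 match 16 bases before it. The octamer occurs in 1.7% of the 32851 promoters of the same length, and the AP-2 motif in 16.6%. Gata3's window held 3 AP-2 matches. At Gata2, the first window held 1 T-box match and the second held 1 TEAD and 1 AP-2 match, motifs found in 4.0%, 14.7% and 16.6% of all promoters. The NR5A motif (4.7% of promoters), the GATA motif (11.2%) and the CDX motif (4.6%) did not occur in these 4 windows, and the E-box occurs in 72.3% of promoters. A match is only a description of the letters in the window. RefSeq promoters were matched for 7 of the 10 members, and those of Hand1, Tfap2c and Tead4 were not used here.

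Tfap2c, the AP-2 factor required for trophoblast maintenance, was the mildest of the 5 genes that passed 2-fold against Oct4-EGFP. Its probe (NM_009335, chromosome 2, 172383860 to 172383919, mm9) read 14651.0 and 14561.3 in Nr5a2-EGFP cells, 4127.6 in Oct4-EGFP cells and 6996.5 in EGFP cells. The ratio was 1.35 (2.55-fold) for Nr5a2-EGFP over Oct4-EGFP and -1.11 (2.16-fold lower) for Oct4-EGFP over EGFP. Nr5a2-EGFP over EGFP gave 0.24, inside the SD between readings. With no dye normalization Oct4-EGFP over EGFP was -0.75, short of 2-fold. Its relative Tfap2a, an AP-2 factor also active in neural crest and epidermis, did not follow it. The brighter Tfap2a probe (NM_001122948, chromosome 13, 40811044 to 40811103, mm9) read 503.2 and 493.3 in Nr5a2-EGFP cells, 315.9 in Oct4-EGFP cells and 266.9 in EGFP cells, with log2 ratios of 0.07, 0.24 and -0.17 for Nr5a2-EGFP over EGFP, Nr5a2-EGFP over Oct4-EGFP and Oct4-EGFP over EGFP. The dimmer one (NM_011547, 40829040 to 40829099) read 95 and 103.0 in Nr5a2-EGFP cells, 54.8 in Oct4-EGFP cells and 50 in EGFP cells. It was not well above background in Oct4-EGFP cells. As measured, Nr5a2-EGFP was 1.26-fold higher there, a log2 ratio of 0.33, which is near the SD between readings. Neither probe passed 2-fold.

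Eomes, a T-box factor of trophoblast stem cells and later of the primitive streak, stayed within 2-fold on both probes. The brighter probe (NM_010136, chromosome 9, 118394425 to 118394484, mm9) read 4188.4 and 4328.8 in Nr5a2-EGFP cells, 2325.8 in Oct4-EGFP cells and 1898.4 in EGFP cells. It gave 0.38 for Nr5a2-EGFP over EGFP, 0.52 for Nr5a2-EGFP over Oct4-EGFP and -0.14 for Oct4-EGFP over EGFP. The second probe (118395189 to 118395248) gave 0.20, 0.60 and -0.41 for the same 3 comparisons in that order. Both probes thus had the same signs.

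Ets2, a factor needed for trophoblast stem cell self-renewal, was bright in every clone and close to even. Its probe (NM_011809, chromosome 16, 95942227 to 95942286, mm9) read 40212.6 and 41018.6 in Nr5a2-EGFP cells, 25514.3 in Oct4-EGFP cells and 24781.7 in EGFP cells. The unadjusted Cy5 signals exceeded the Cy3 signals, as they did for most genes before normalization, when the median log2 ratio was 0.73 on the EGFP array and 0.36 on the Oct4 array. After it, the log2 ratios were -0.04 for Nr5a2-EGFP over EGFP, 0.22 for Nr5a2-EGFP over Oct4-EGFP and -0.26 for Oct4-EGFP over EGFP. All 3 lie inside the SD between readings.

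Elf5, which closes the trophoblast stem cell loop with Cdx2 and Eomes, was not well above background in any channel. Its probe (NM_010125, chromosome 2, 103290958 to 103291017, mm9) read 20.2 and 45.2 in Nr5a2-EGFP cells, 29.9 in Oct4-EGFP cells and 39.3 in EGFP cells. No ratio can be read from such signals, and Elf5 is left out of the counts over 9 members.

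Hand1, the basic helix-loop-helix factor of giant cell differentiation, was the member whose highest reading was in the EGFP clone and lay 2-fold above Nr5a2-EGFP. Its probe (NM_008213, chromosome 11, 57642342 to 57642401, mm9) read 4315.8 and 3932.8 in Nr5a2-EGFP cells, 636.4 in Oct4-EGFP cells and 6096.0 in EGFP cells. The log2 ratio was -1.27 for Nr5a2-EGFP over EGFP, 2.41-fold lower, and -0.50 with no dye normalization. Against Oct4-EGFP, Nr5a2-EGFP cells were 4.62-fold higher, a log2 ratio of 2.21. Oct4-EGFP over EGFP gave -3.47, number 19 from the bottom of 26647. Hand1 thus lay between the other clones in Nr5a2-EGFP cells, unlike Gata3 and Gata2, whose highest readings were in Nr5a2-EGFP cells.

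**Figure D2:**
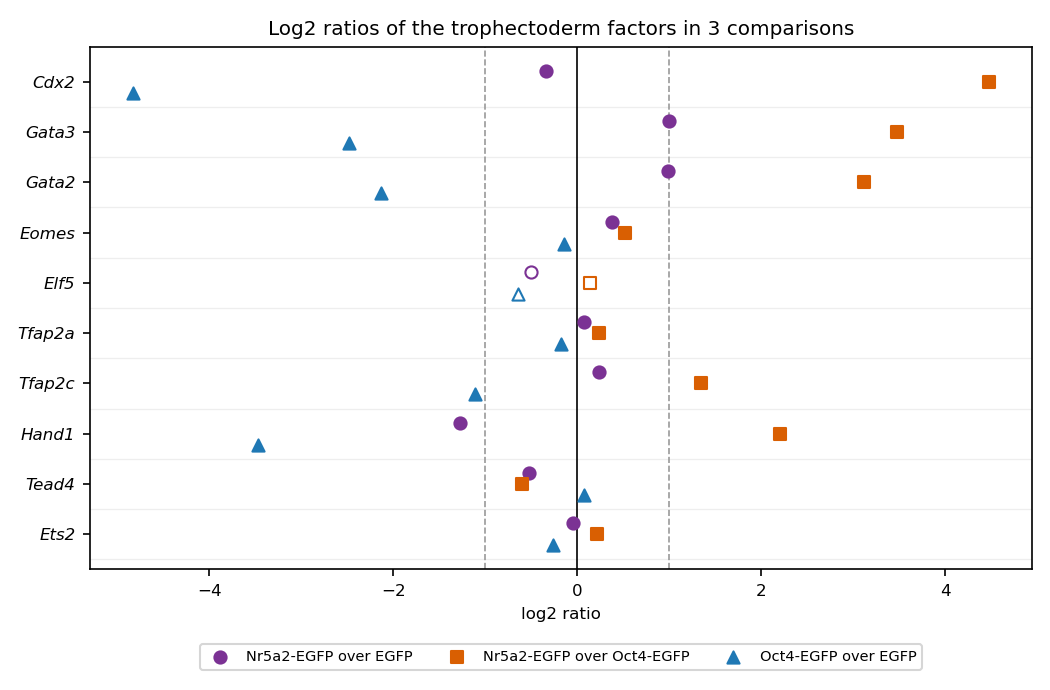
Log2 ratio (horizontal axis) of each member (rows) for Nr5a2-EGFP over EGFP, Nr5a2-EGFP over Oct4-EGFP and the derived Oct4-EGFP over EGFP, with lines at 2-fold and open symbols for Elf5, which was not well above background. Cdx2, Gata3, Gata2, Hand1 and Tfap2c lie above 1 against Oct4-EGFP and below -1 for Oct4-EGFP over EGFP, while Eomes, Tfap2a, Ets2 and Tead4 stay between the lines throughout.

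**Figure D3:**
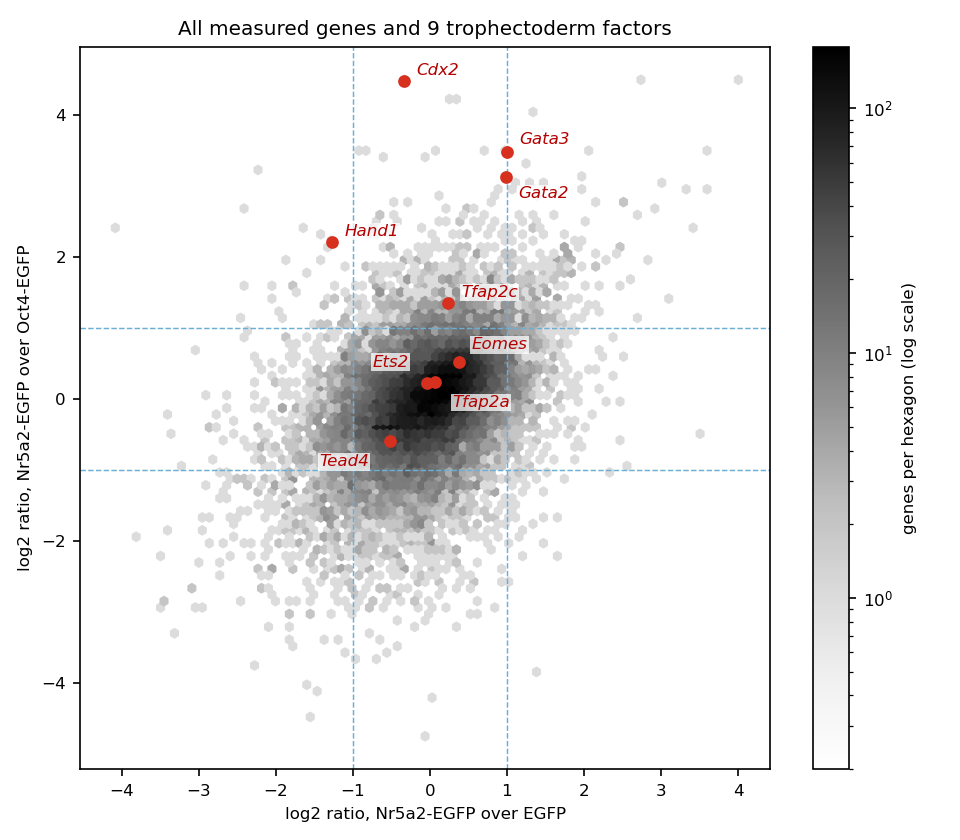
Each measured gene placed by its log2 ratio for Nr5a2-EGFP over EGFP (horizontal axis) and Nr5a2-EGFP over Oct4-EGFP (vertical axis), with grey hexagons shaded by the number of genes on a log scale and the 9 measured members in red. Both axes share the Nr5a2-EGFP clone, and Cdx2 stands at -0.34 and 4.48, Gata3 at 1.00 and 3.48, Gata2 at 0.99 and 3.12 and Hand1 at -1.27 and 2.21.

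The genes whose pair of log2 ratios lay closest to that of Cdx2, by straight-line distance over the 2 arrays among 17562 genes, were Chi3l1 (0.25 against EGFP and 4.21 against Oct4-EGFP, distance 0.65), Lcp1 (0.34 and 4.25, distance 0.72), Cebpb (0.05 and 3.52, distance 1.04), Rhox9 (-0.84 and 3.5, distance 1.10) and Phlda2 (-0.06 and 3.39, distance 1.12). For Gata3 the closest were Peg10 (1.28 and 3.28, distance 0.34), Gata2 (0.99 and 3.12, distance 0.36), Tbrg4 (1.10 and 3.08, distance 0.42), Irgm2 (1.06 and 2.98, distance 0.51) and App (0.89 and 2.94, distance 0.55). Phlda2 and Peg10 are imprinted genes with known roles in the placenta. With 2 arrays this likeness is a description only.

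The genes that act upstream of the members were counted from a list of 21 Hippo, Notch and polarity components, of which 19 were on the array. Against Oct4-EGFP, 5 of 18 measured were 2-fold higher in Nr5a2-EGFP cells and none lower, with a median of 0.38. That was 27.8% apart, against 11.7% of all genes. These 5, named after their values were seen, were Pard3 at 1.48, Amotl2 at 1.30, Amot at 1.25, Vgll4 at 1.22 and Yap1 at 1.15. Pard3, a polarity scaffold, rests on its brightest probe, and its other probes ranged from -0.51 to 0.39. Amot and Amotl2 are angiomotins, which hold Yap1 out of the nucleus, and Vgll4 competes with Yap1 for the TEAD factors. Between Oct4-EGFP and EGFP, none was higher and 4 were lower in Oct4-EGFP (22.2% apart, against 12.2% of all genes). These 4 were led by Pard3 at -2.15 and Yap1 at -1.65. The other probes of Prkcz were opposite in sign to its brightest. They ranged from 0.84 to 1.02 against Oct4-EGFP, where the brightest was at -0.28. For Oct4-EGFP over EGFP they ranged from -2.31 to -1.16 (brightest 0.66), and against EGFP from -1.29 to -0.32 (brightest 0.38). Against EGFP, none of the 18 reached 2-fold in either direction by its brightest probe, where 8.4% of all genes did. Wwtr1 (Taz, the relative of Yap1) at 0.99 and Rbpj, the Notch effector, at 0.86 were the highest there, and Amotl1 at -0.70 was the lowest.

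Further down the lineage, trophoblast differentiation genes had 2 of 14 higher and none lower in Nr5a2-EGFP against Oct4-EGFP (14.3% apart, near the 11.7% of all genes). They were Rhox6, a placental homeobox gene, at 3.52 and Plac1, a placenta-specific gene, at 2.16. In Oct4-EGFP against EGFP cells none was higher and 4 of 14 were lower (28.6% apart, against 12.2% of all genes). Rhox6 was at -4.46 and Cited1, a trophoblast coactivator, at -1.95. Against EGFP, only Cited1 of 12 measured passed 2-fold by its brightest probe, at -1.33 (8.3%, against 8.4% of all genes). Rhox6 was at -0.93. Of the 17 genes of this list on the array, 11 were well above background in every channel, among them the cathepsin gene Cts7 at 0.36 against Oct4-EGFP. The placental lactogen gene Prl3b1 was bright in every clone, being saturated in Nr5a2-EGFP cells and reading 62214.5 in Oct4-EGFP and 44602.1 in EGFP cells. The brightest Gcm1 probe was saturated in every channel, and Ovol2 in every channel but that of EGFP cells. Against Oct4-EGFP the other Gcm1 probes ranged from -0.43 to 2.1 (brightest -0.43), and the other Cited2 probe was at 1.95 (brightest 0.72). For Oct4-EGFP over EGFP they ranged from -1.08 to -0.25 for Gcm1 (brightest -0.25) and stood at -1.19 for Cited2 (brightest -0.26). The counts for this list thus depend on the probe chosen. Tpbpa, Ctsq and Ctsj were not well above background in any channel.

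Epithelial and transport genes of the trophectoderm had 8 of 23 higher and 1 lower in Nr5a2-EGFP against Oct4-EGFP, with a median of 0.63. That was 39.1% apart, against 11.7% of all genes. Krt18, a keratin of simple epithelia, was at 2.04. Cldn6, a tight-junction claudin, was saturated in Nr5a2-EGFP cells, so it was at least 6.68-fold higher there. The gene that went the other way was Aqp3, a water and glycerol channel, at -2.66. Atp1b1, the sodium pump's beta subunit, which drives blastocoel filling, was at -0.92. For Oct4-EGFP over EGFP, 2 of 24 were higher (Aqp3 and Atp1b1, both at 1.62) and 8 lower, among them the keratin Krt19 at -2.40. Together these were 41.7%, against 12.2% of all genes. Against EGFP, none of 23 was higher and 1 was lower, Aqp3 at -1.04 (4.3% apart, against 8.4% of all genes).

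Partners of the members in trophoblast stem cells did not share a direction. Against Oct4-EGFP, 3 of 15 were higher in Nr5a2-EGFP cells and 5 lower, with a median of -0.40. Together 53.3% were apart, against 11.7% of all genes. Id2, an inhibitor of helix-loop-helix factors, and Arid3a, a trophoblast regulator, were both at 1.34. Esrrb was at -3.72, and its Nr5a2-EGFP readings were -1.45 apart between arrays. Esrrb and Fgf4 stand in the embryonic stem cell list as well. In Oct4-EGFP against EGFP, 5 of 15 were higher and 4 lower (60% apart, against 12.2% of all genes). Sox21 was at 2.1 (its other probe was at 0.06) and Arid3a at -1.74. Sall4, at -1.49, rests on a probe saturated in Nr5a2-EGFP and EGFP cells, and its other probes ranged from -2.0 to 0.03. Against Oct4-EGFP the saturated Sall4 probe was at 0.84 and the others ranged from 0.46 to 3.01. Against EGFP, 1 was higher and 2 lower (20% apart, against 8.4% of all genes). That 1 was Sox21 at 1.70 (its other probe was at 0.01), and the lower 2 were Esrrb at -2.30 and Fgf4, the growth factor that sustains trophoblast stem cells, at -2.20. The Fgf4 readings of Nr5a2-EGFP were -2.93 apart, and its Oct4-EGFP channel was saturated. With the other array's Nr5a2-EGFP reading, Esrrb against EGFP was at -0.85 and Fgf4 at 0.73, so neither was 2-fold lower.

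**Figure D4:**
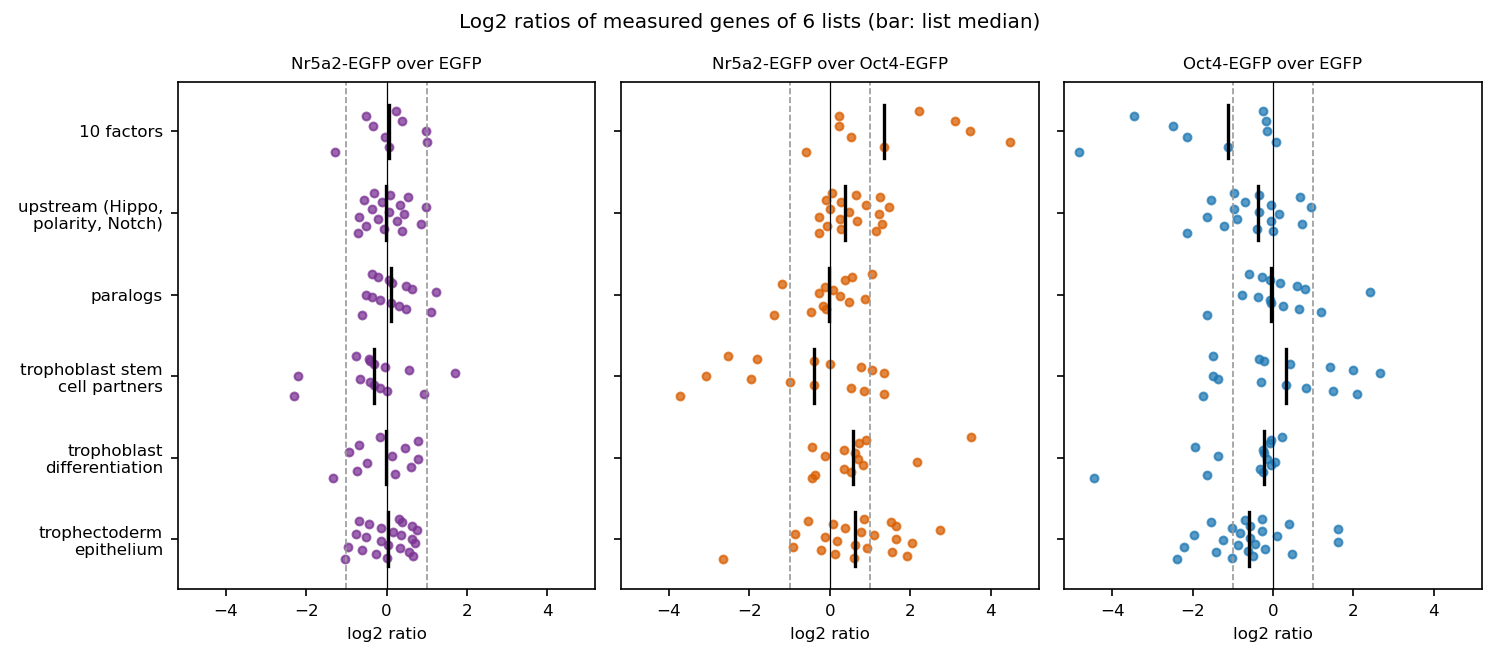
Log2 ratio of each measured gene in the gene lists (rows) for Nr5a2-EGFP over EGFP, Nr5a2-EGFP over Oct4-EGFP and the derived Oct4-EGFP over EGFP (panels), with list medians marked and lines at 2-fold. The members' median is 0.07, 1.35 and -1.11 in the panels from left to right, and that of the trophectoderm epithelium list is 0.04, 0.63 and -0.61.

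Markers of other cell types also differed between the clones. Of 11 embryonic stem cell markers, 7 were 2-fold lower and none higher in Nr5a2-EGFP against Oct4-EGFP (63.6% apart, against 11.7% of all genes). With the other array's Nr5a2-EGFP reading, 6 of these 7 stayed lower, Zfp42 being the exception. Nanog, Tbx3, Dppa5a and Fgf4 were saturated in 1 or more channels. The summed normalized level of the other 7 markers was 23650 and 24620 in Nr5a2-EGFP cells, 108100 in Oct4-EGFP cells and 26820 in EGFP cells. Against EGFP, 1 was higher (Tbx3, saturated in Nr5a2-EGFP cells) and 2 lower (Esrrb and Fgf4), and with the other reading 0 were lower. The share apart in the main reading was 27.3%, against 8.4% of all genes. These marker counts use the brightest probe of each gene. The other Nanog probe was at 1.7 against EGFP (brightest -0.61) and at -0.43 against Oct4-EGFP (brightest -0.41). Other probes of Tdgf1 ranged from -1.97 to -1.83 against Oct4-EGFP (brightest -0.3) and from 0.13 to 0.79 against EGFP (brightest 0.33). Primitive endoderm markers summed to 10520 and 12810 in Nr5a2-EGFP cells, 32450 in Oct4-EGFP cells and 11270 in EGFP cells, but without Lama1, a laminin chain at -1.81 for Nr5a2-EGFP over Oct4-EGFP, the sums were 4481 and 4431 in Nr5a2-EGFP cells, 3018 in Oct4-EGFP cells and 4746 in EGFP cells. Of the 9 measured, 1 (the endocytic adaptor Dab2, at 1.86) was higher and 1 (Lama1) lower in Nr5a2-EGFP against Oct4-EGFP, with a median of 0.23. That was 22.2% apart, against 11.7% of all genes. Streak and mesoderm markers summed to 35810 and 39380 in Nr5a2-EGFP cells, 31550 in Oct4-EGFP cells and 27980 in EGFP cells. Without Kdr, the sums were 10970 and 12330 in Nr5a2-EGFP cells, 12990 in Oct4-EGFP cells and 12690 in EGFP cells. T, Mixl1, Mesp1, Gsc and Meox1 were not well above background in any channel. Neural markers summed to 13460 and 14410 in Nr5a2-EGFP cells, 19470 in Oct4-EGFP cells and 12440 in EGFP cells, and fibroblast markers to 12290 and 13100 in Nr5a2-EGFP cells, 22700 in Oct4-EGFP cells and 17110 in EGFP cells. Afp, Lum and Postn were not well above background in any channel. The part of these cells in the members' levels was not tested.

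Of 4 genes often used for normalization, 1 passed 2-fold by its brightest probe. Actb had a log2 ratio of 1.44 for Nr5a2-EGFP over Oct4-EGFP and -0.33 for Nr5a2-EGFP over EGFP, while Gapdh was at 0.01 and 0.59, Hprt at 0.28 and -0.10, and Tbp at 0.44 and 0.09 for the same 2 comparisons. The Actb readings of Nr5a2-EGFP were -0.82 apart, and with the other reading it stood at 0.61 against Oct4-EGFP, within 2-fold. On a dimmer Gapdh probe the Nr5a2-EGFP readings were 1.72 apart. With the other reading that probe stood at 1.93 against Oct4-EGFP and -1.14 against EGFP, and a further Gapdh probe stood at 1.04 against Oct4-EGFP. The remaining Gapdh probes stayed within 2-fold with either reading.

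**Figure D5:**
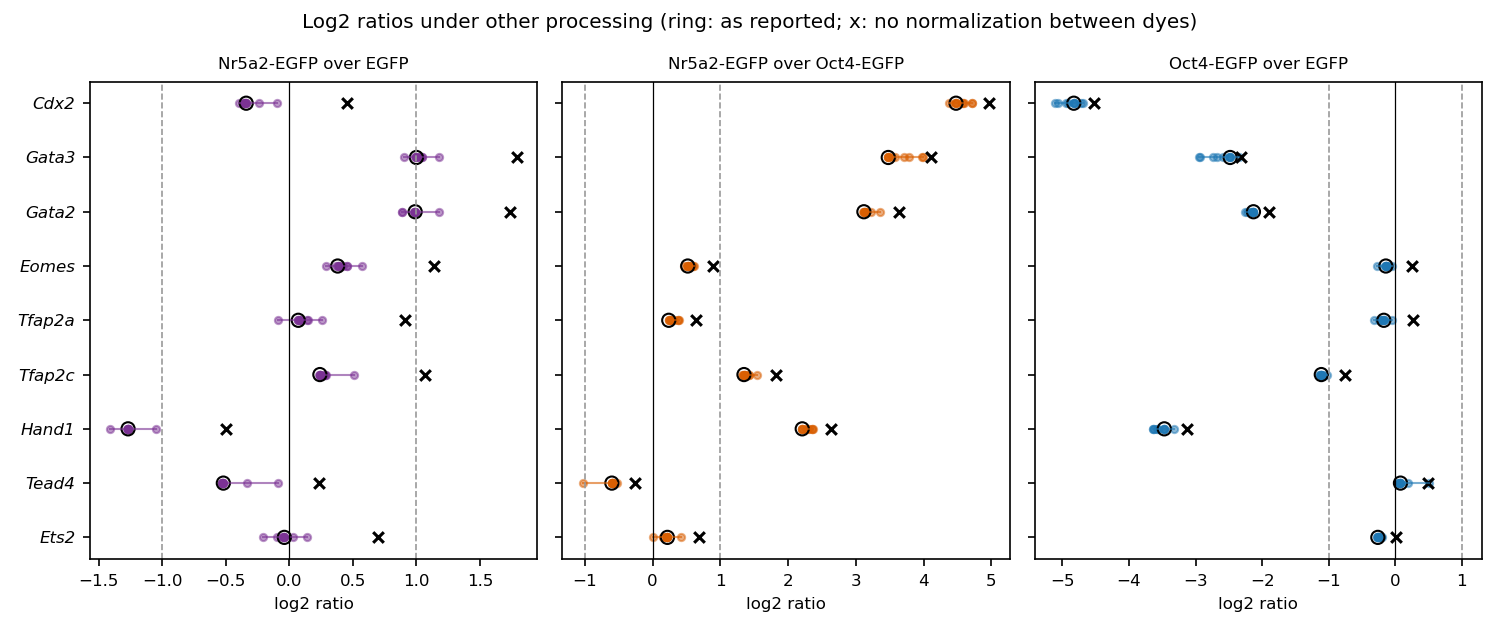
Log2 ratio of each measured member (rows) as reported (ring), under the alternatives (dots) and with no dye normalization (crosses), for Nr5a2-EGFP over EGFP, Nr5a2-EGFP over Oct4-EGFP and the derived Oct4-EGFP over EGFP (panels). Cdx2 against Oct4-EGFP ranges from 4.38 to 4.97, whereas Gata3 against EGFP ranges from 0.90 to 1.79 and so spans the 2-fold line.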

How the data were processed

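The arrays were Agilent two-colour arrays of design 026655, whose headers place the probes on mm9. Spot intensity files were deposited as written by Feature Extraction (per the file headers in version 10.7.3.1), although 9.3.2.1 is the version in the submitters' processing notes. Per the labels' protocols, each channel took 10 µg of RNA, and the dye entered directly during oligo-dT-primed reverse transcription. The software's log10 ratio of Cy5 over Cy3 and the log2 value table that the authors deposited were used as alternatives. The flags for outliers, saturation and spots well above background are the software's, per the file headers.

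From the mean signal and local background, normexp correction (offset 50), loess within each array (span 0.3) and Aquantile scaling between arrays were run in limma 3.58.1 (R 4.3.3). Control spots and outlier spots (530 against EGFP, 523 against Oct4-EGFP) had weight 0 and were then dropped, and the spots of 1 probe were averaged, 399 probes being printed 10 times. Their median SD of the log2 ratio between spots was 0.068 and 0.066. Ratios come from the loess step, and levels from the Aquantile step. A gene is its brightest probe, measured where it was well above background in 1 or more channels of the comparison. For a channel not well above background, a bound takes the higher of its own level and the lowest level among probes well above background. For the dimmer Tfap2a probe that was its own level, so the bound equals the measured ratio. The ratio step was tested on simulated data. There is no replicate array. Nothing in the labels says whether Nr5a2-EGFP RNA was extracted more than once, so whether repeat readings cover more than technical error is not known. The naming rule takes the members, the 2 highest and 2 lowest of each list per comparison, the 5 nearest to Cdx2 and Gata3, and the transgene and normalization genes. Not all of these are printed, mainly in the marker lists, which are given by counts and sums, and other list genes named (such as Amot, Vgll4 and Tead2) were chosen after their values were seen. The members and lists were chosen with earlier results of these data known. All 12 probe accessions matched the member's symbol in the RefSeq table. For 1 gene that the naming rule selects, no value is reported here.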

Additional observations from a re-analysis of the deposited data

How the results depend on the processing

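No paired analysis was possible because each pair of clones has 1 array and no replicate. Of 297 member values recomputed under the alternatives, 265 stayed within 1 SD between repeat readings of the main value, 32 moved further and 0 changed sign after being counted. The 5 members higher against Oct4-EGFP numbered 5 under all 11 alternatives. Not all of these could move a value. The alternatives that only changed the background filter gave every measured member the same ratio, and averaging over probes could change only Eomes and Tfap2a. The tallies of 265 and 11 thus include values that could not differ from the main one. The count higher against EGFP, 1 as reported, was 2 with median centring in place of loess, 0 with outlier spots kept, 0 with the other array's Nr5a2-EGFP reading and 4 with plain subtraction and no dye normalization, a setting chosen after seeing the data. Under that setting the count lower against EGFP was 0. The count lower against Oct4-EGFP became 1 with the other array's reading, where Tead4 stood at -1.03. The count lower for Oct4-EGFP over EGFP was 4 without normalization, Tfap2c being at -0.75.

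Median centring moved the all-gene median against EGFP to 0.16, and no normalization moved it to 0.83. The share of counted genes that were higher there was 63.5% and 96.1% under these settings, against 39.8% in the main one. Without normalization the median was 0.40 and the share 74.4% against Oct4-EGFP (39.0% in the main one), and 0.42 and 83.7% for Oct4-EGFP over EGFP (52.5% in the main one). Counts over all genes that differed by more than 1.5 times were, for Nr5a2-EGFP over EGFP, 869 higher against 1364 with subtraction, 1555 with median centring, 1783 with the software's ratio, 1784 with the value table and 9918 without normalization, and 1315 lower against 2124, 2112 and 401 with the last 3 settings. Against Oct4-EGFP, 1184 higher compared with 1955, 2041 and 3799 under the same 3. For Oct4-EGFP over EGFP, 1705 higher compared with 2623 with the software's ratio and 4791 without normalization, and 1541 lower compared with 2502, 2534 and 935 under the 3 settings. In the gene lists, the other array's Nr5a2-EGFP reading, tried after seeing the data, changed the count lower against EGFP to 0 from 2 for trophoblast stem cell partners, to 2 from 1 for trophoblast differentiation and to 3 from 1 for trophectoderm epithelium, and the upstream list had 1 higher there in place of 0. The cause was not tested. Signal near background limits Elf5 and the dimmer Tfap2a probe.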

Other observations

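Most measured paralogs of the members stayed within 2-fold in each comparison, though the share apart was above that of all genes. Against EGFP, 2 of 15 measured (13.3%, where 8.42% of all genes were 2-fold apart) were 2-fold higher in Nr5a2-EGFP cells and none lower, namely Cdx1, the intestinal relative of Cdx2, at a log2 ratio of 1.23 and Elf3, an epithelial relative of Elf5, at 1.10, which was short of 2-fold with the other array's Nr5a2-EGFP reading. Against Oct4-EGFP, 3 of 14 were 2-fold apart (21.4%, against 11.7% of all genes), of which 1 was higher (Gata1, the erythroid factor, at 1.04) and 2 were lower (Tfap2e at -1.39 and Cdx1 at -1.18). For Oct4-EGFP over EGFP, 3 of 15 were apart (20%, against 12.2% of all genes). Cdx1 stood at 2.41, opposite in sign to Cdx2 at -4.83, and Tfap2e at 1.19, while Gata1 was at -1.65. Tead2, a relative of Tead4, gave 0.64 for Nr5a2-EGFP over EGFP and -0.16 for Nr5a2-EGFP over Oct4-EGFP, while Tead1 was saturated in Nr5a2-EGFP cells and Tead3 was not well above background in Oct4-EGFP or EGFP cells. Gata6, a primitive endoderm factor, was at 0.87 for Nr5a2-EGFP over Oct4-EGFP. Cdx4, Tfap2b and Tfap2d were not well above background in any channel.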
